A study of Mus musculus with 17 samples.

Results

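Kdm6a, which encodes the histone demethylase UTX, was examined together with 9 other chromatin regulator genes: its paralogue Kdm6b, the histone H3K4 methyltransferase genes Kmt2c and Kmt2d and their partner Ncoa6, the Polycomb genes Ezh2 and Aebp2, the acetyltransferase gene Ep300, and the remodelling genes Arid1b and Chd2. All 10 were found among 21887 protein-coding genes of GRCm38. A peak was counted for a gene when it overlapped that gene by at least 1 bp, or when it overlapped no protein-coding gene and that gene was the nearest. By this rule 18 of 2948 peaks belonged to the 10 genes.

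The peaks come from chromatin immunoprecipitation and sequencing (ChIP-seq) of crosslinked epidermal cells of female mice, with antibodies against H3K27ac (acetylated lysine 27 of histone H3) and against UTX. Control mice were labelled Cre-; Utx fl/fl and Utx-deleted mice Cre+; Utx fl/fl, so both groups carry floxed Kdm6a and only the deleted group carries Krt14-Cre, which acts in cells that express keratin 14 and in their descendants. Epidermal cells of other origin keep Kdm6a, and neither age nor strain is given in the labels. The labels hold 3 UTX and 3 input libraries of each genotype, 3 H3K27ac libraries of Utx-deleted mice and 2 of controls. The protocol text speaks of 3 per group, so whether the control H3K27ac list was called on 2 libraries or 3 is not known. The authors merged the samples of a group before calling peaks, so each of the 4 lists is a single set with no replicate values from which the genotypes could be tested against each other.

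UTX removes methyl groups from H3K27 and is a subunit of the COMPASS-like complexes, in which KMT2C or KMT2D methylates H3K4 at enhancers. EZH2 is the catalytic subunit of Polycomb repressive complex 2, which writes the methyl mark that UTX and KDM6B erase, and AEBP2 is an accessory subunit of that complex. EP300 (p300) acetylates H3K27, the mark of active promoters and enhancers mapped here.

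The lists differ greatly in size. The control H3K27ac list held 2140 peaks and the Utx-deleted H3K27ac list 48, and the UTX lists held 547 and 213 in the same order. Read depth per library is not known from the lists, and an absent peak shows only that no region passed the authors' threshold. The tissue label was checked on marker genes. Of 25 keratinocyte markers 13 had a control H3K27ac peak, among them Dsp with 11 and Gata3 with 19, while the defining genes Krt5 and Krt14 had none. Of 44 markers of 6 other cell types 2 had one, Pecam1 with 6 and Vwf with 1, of the endothelial, mural and muscle list. The other 5 lists were at 0, and the share over all genes was 6.13%. No keratinocyte marker had a UTX peak in either genotype, while Vwf had 1 in each and the melanocyte marker Tyrp1 had 1 in controls.

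Among the 10 genes, 4 had a control H3K27ac peak: Chd2 with 7, Kdm6b with 4, and Aebp2 and Arid1b with 2 each. The other 6, Kdm6a, Kmt2c, Kmt2d, Ncoa6, Ezh2 and Ep300, had no peak in any list. Over all protein-coding genes 6.13% had a control H3K27ac peak. In each of the remaining lists Arid1b alone of the 10 genes had a peak, and it had 1. The share over all genes was 0.128% for Utx-deleted H3K27ac, 2.44% for control UTX and 0.516% for Utx-deleted UTX. The 10 genes were chosen with results of these lists known, so their counts are a description and not evidence that chromatin regulators are marked more often.

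**Figure D1:**
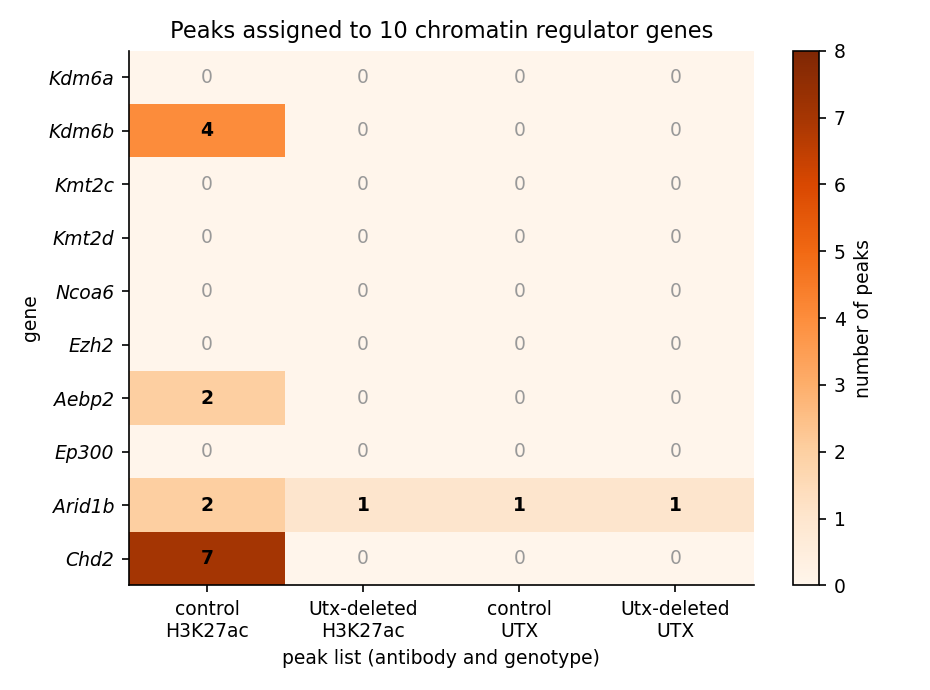
Number of peaks assigned to each of the 10 genes (rows) in each of the 4 peak lists (columns). Chd2 with 7 and Kdm6b with 4 control H3K27ac peaks stand out, Arid1b has a peak in all 4 lists, and 6 genes are at 0 throughout.

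The 15 control H3K27ac peaks of the 4 genes covered 5828 bp and made up 0.701% of that list. All 4 genes had at least 2 peaks, as did 1.88% of all genes. Among the 1342 genes with a control H3K27ac peak, 412 had at least 2, 100 at least 4 and 17 at least 7. At least 4 peaks were assigned to Chd2 and Kdm6b and to 0.457% of all genes, and at least 7 to Chd2 and 0.0777% of all genes. The median over genes with a peak was 1. The rule sets no distance limit, and these counts were not corrected for gene length. Chd2 is 115 kb long in a span of 320 kb between its neighbours, and Kdm6b 21.9 kb in 22.6 kb. Genes with a control H3K27ac peak had a median length of 24178.5 bp. Of the 15 peaks, 7 lay inside the gene and 8 outside it, whereas 63.1% of all placed peaks of the list lay inside a protein-coding gene. At most 1 kb from the border of some protein-coding gene lay 2 of the 15, at Aebp2 and Chd2, against 36.1% of the list. Their widths ran from 218 bp at Chd2 to 1119 bp, also at Chd2, with a median of 302 bp against 273 bp for the whole list, and 8 of the 15 exceeded the list's median.

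**Figure D2:**
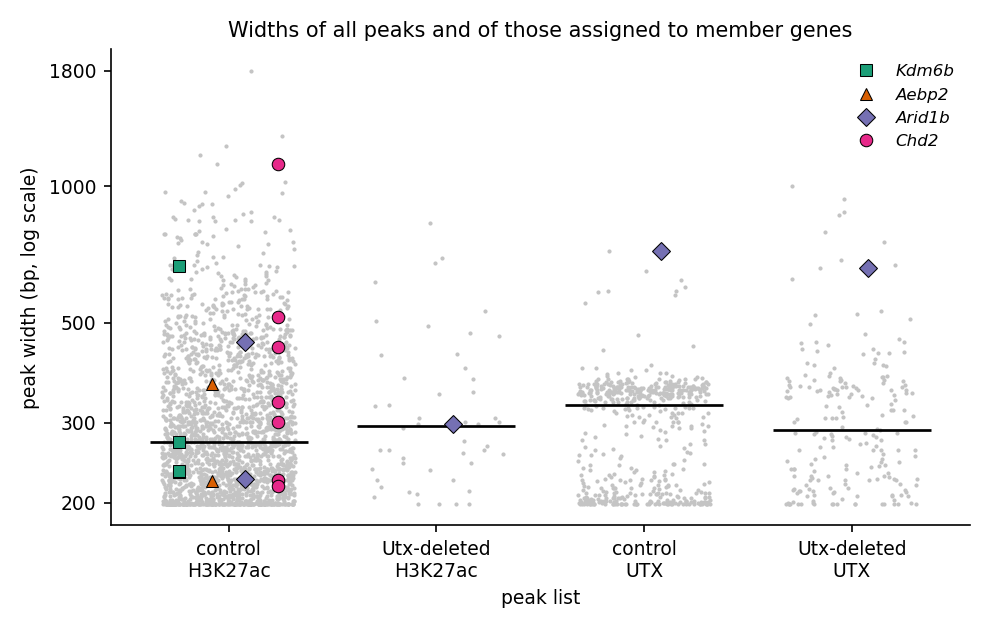
Peak widths in bp on a log scale for the 4 lists. Grey dots are all peaks, black lines the medians of the lists, and coloured symbols the peaks assigned to Kdm6b, Aebp2, Arid1b and Chd2. The Chd2 peaks span 218 to 1119 bp, and the Arid1b peaks of the 2 UTX lists (720 and 660 bp) lie far above the medians of 328 and 289 bp.

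The gene deleted in the study comes first. Kdm6a lies on chromosome X from 18160862 to 18279936 and is 119 kb long. It had no peak inside it or within 100 kb of it in any list, so the lists cannot serve to check the deletion. No peak of any list was assigned to 20017 of the 21887 protein-coding genes, so this absence is not particular to Kdm6a. Chromosome X held 5 control H3K27ac peaks in all, and the nearest, assigned to the RNA helicase gene Ddx3x, lay 4880088 bases from Kdm6a. The nearest control UTX peak lay 2347475 bases away at Rbm10, which encodes an RNA-binding protein of splicing. In both Utx-deleted lists the nearest peak was assigned to Cldn34d, 58318620 bases away for H3K27ac and 58318611 for UTX.

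RefSeq gives Kdm6a a start site at 18162575, inside the gene rather than at its lower end (18160862). Its window (250 bases before to 50 after) is printed here as the listed promoter of the targeted gene. It lies at chrX:18162325-18162624 of GRCm38.p6 on the + strand, and capitals mark the motifs found: an SP/KLF motif (GGGCGG) and an E-box (CACGTG).
Kdm6a: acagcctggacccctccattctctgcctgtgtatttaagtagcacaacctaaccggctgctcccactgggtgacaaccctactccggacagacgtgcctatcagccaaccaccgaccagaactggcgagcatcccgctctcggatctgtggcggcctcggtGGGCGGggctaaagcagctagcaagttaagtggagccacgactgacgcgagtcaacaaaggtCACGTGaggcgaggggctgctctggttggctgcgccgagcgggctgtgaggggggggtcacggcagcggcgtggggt
GC content of this window was 63%, with 21 CpG dinucleotides, against medians of 52.7% and 7 over all 32851 RefSeq windows. On either strand, GGGCGG was found in 35.7% of all windows and CACGTG in 7.15%.

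Kdm6b, also called Jmjd3, encodes the other widely active H3K27 demethylase and is known as a gene induced during inflammation and epidermal differentiation. It is a compact gene of 21.9 kb on chromosome 11 from 69398508 to 69420367, with Tmem88 273 bases below its lower end and Dnah2 439 bases above its upper end. All 4 of its control H3K27ac peaks lay inside it. From the lower end upward the first spanned 666 bp (69410094 to 69410759), the next 272 bp (69411009 to 69411280), the third 234 bp (69411348 to 69411581) and the last 235 bp (69417792 to 69418026). The first ranked 65 in width among 2140 peaks, and the other 3 were narrower than the list's median.

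The first 3 Kdm6b peaks form a close group, with 249 and 67 bases between neighbours. The last stood 6210 bases further on, inside the annotated long noncoding RNA (lncRNA) gene Gm51903, which overlaps that end of Kdm6b. Together the 4 peaks covered 1407 bp of a stretch of 7933 bp. None came within 1 kb of an end of the gene, the nearest being 2341 bases from the upper end. After Utx deletion no peak was called at Kdm6b with either antibody. Over all genes 0.128% had a Utx-deleted H3K27ac peak and 0.516% a Utx-deleted UTX peak. In controls the nearest UTX peak was 363865 bases from the gene and was assigned to Chrnb1, a muscle acetylcholine receptor subunit gene.

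Chd2 encodes a chromodomain helicase that remodels nucleosomes at transcribed genes. The gene spans 115 kb on chromosome 7 from 73426652 to 73541746, and next to it lies the lncRNA gene Chaserr, known in mouse to restrain Chd2 expression in cis. In this annotation Chaserr runs from 73539798 to 73558395 and shares 1949 bp with Chd2. The 7 control H3K27ac peaks lay in a stretch of 82085 bp that begins inside Chd2 near its upper end and reaches far into the 198560 bases between Chd2 and the next protein-coding gene, Fam174b. Of these peaks, 2 lay inside Chd2 and 5 outside it.

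Inside Chd2 a peak of 515 bp (73537112 to 73537626) lay 4120 bases from the upper end, and a peak of 302 bp (73541415 to 73541716) ended 30 bases from it. The second also overlapped Chaserr. The widest peak, 1119 bp (73555892 to 73557010), lay 14145 bases outside Chd2 but inside Chaserr, 1385 bases from the listed start site of that lncRNA. It ranked 5 in width among the 2140 peaks. The widest peak counted for Chd2 therefore sat on a noncoding neighbour.

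The remaining 4 Chd2 peaks were narrower and farther away. Peaks of 225 bp (73589003 to 73589227) and 218 bp (73607996 to 73608213) lay 47256 and 66249 bases outside Chd2, inside the lncRNA gene Gm30149. The second of these was 527 bases from a listed start site of Gm30149. The last pair, of 334 bp (73617694 to 73618027) and 441 bp (73618756 to 73619196), lay 75947 and 77009 bases outside Chd2 and only 728 bases apart. In all, 4 of the 7 Chd2 peaks overlapped an annotated lncRNA gene.

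The promoter window of Chaserr is shown because the widest peak of the 10 genes ends 1335 bases from it. It lies at chr7:73558346-73558645 of GRCm38.p6 on the - strand, and capitals mark a CCAAT box and 2 SP/KLF motifs (GGGCGG).
Chaserr: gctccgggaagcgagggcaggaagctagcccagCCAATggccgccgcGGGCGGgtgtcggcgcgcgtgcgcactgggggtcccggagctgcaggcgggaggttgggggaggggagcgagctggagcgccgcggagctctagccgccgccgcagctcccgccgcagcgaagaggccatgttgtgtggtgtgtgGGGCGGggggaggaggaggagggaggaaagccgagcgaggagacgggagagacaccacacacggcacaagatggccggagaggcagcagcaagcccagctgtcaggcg
Its GC content was 72.3% with 30 CpG dinucleotides, and 10.6% of all windows held more. The letters CCAAT, searched on either strand, was found in 37.4% of all windows.

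No Utx-deleted H3K27ac peak (0.128% of all genes had one) and no UTX peak of either genotype (controls 2.44%, deleted 0.516%) was assigned to Chd2. The closest call was a control UTX peak of 199 bp (73642107 to 73642305), 100360 bases from the gene and just outside the rule, since Fam174b was nearer. It stood 22910 bases from the outermost Chd2 H3K27ac peak. Chromosome 7 held no Utx-deleted H3K27ac peak at all and 3 Utx-deleted UTX peaks.

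**Figure D3:**
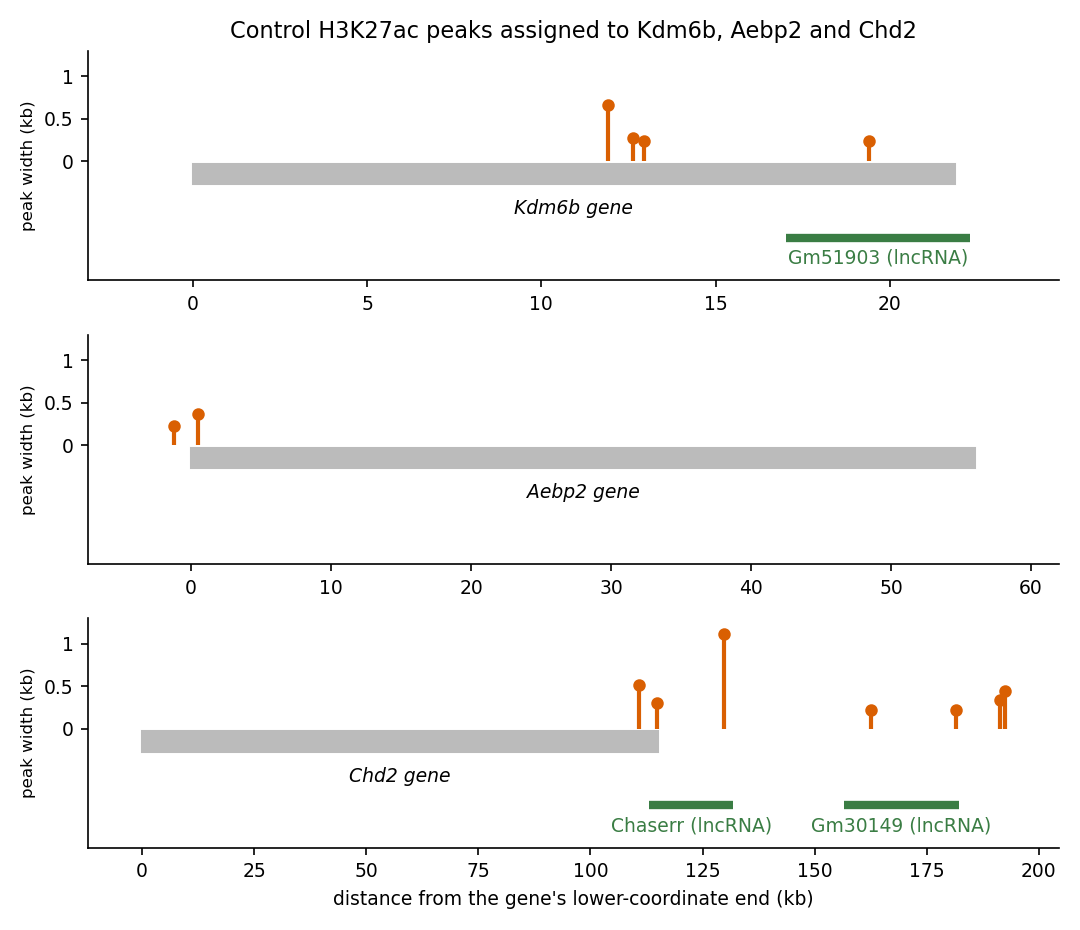
Control H3K27ac peaks assigned to Kdm6b, Aebp2 and Chd2, placed by distance in kb from the lower-coordinate end of each gene. The height of each stem is the peak's width in kb, grey bars are the genes and green bars are lncRNA genes that the peaks overlap. The Kdm6b peaks lie inside the gene, those of Aebp2 at its lower end, and 5 of the 7 Chd2 peaks beyond its upper end.

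Aebp2 lies on chromosome 6 from 140622454 to 140678472 and is 56 kb long. Its 2 control H3K27ac peaks lay on either side of its lower end, which is the upstream end of this + strand gene. The first, of 223 bp (140621101 to 140621323), lay 1130 bases outside the gene. The second, of 365 bp (140622762 to 140623126), lay inside it, 99 bases after the first of 3 start sites that RefSeq lists, at 140622663. The other start sites, 140624909 and 140626885, lie farther inside, and which is used in these cells was not tested. Between the 2 peaks were 1438 bases, and both lay within the same 2026 bp. This was the only member of the Polycomb pair with a peak, and no other list had a peak at Aebp2. Over all genes 0.128% had a Utx-deleted H3K27ac peak, 2.44% a control UTX peak and 0.516% a Utx-deleted UTX peak. Peaks in the control H3K27ac list only were the pattern of 1290 genes. The nearest control UTX peak was 4452505 bases away.

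The windows of the first and second Aebp2 start sites are compared because the first borders the H3K27ac peak. They lie at chr6:140622413-140622712 and chr6:140624659-140624958 of GRCm38.p6, both on the + strand. Capitals mark SP/KLF motifs (GGGCGG, which reads CCGCCC where it is on the other strand).
Aebp2 first start site: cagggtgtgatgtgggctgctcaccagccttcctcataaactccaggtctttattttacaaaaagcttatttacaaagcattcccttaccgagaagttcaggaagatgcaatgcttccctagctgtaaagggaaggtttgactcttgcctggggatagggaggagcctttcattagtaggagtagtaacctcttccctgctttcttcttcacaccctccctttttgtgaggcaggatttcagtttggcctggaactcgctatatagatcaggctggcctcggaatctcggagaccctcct
Aebp2 second start site: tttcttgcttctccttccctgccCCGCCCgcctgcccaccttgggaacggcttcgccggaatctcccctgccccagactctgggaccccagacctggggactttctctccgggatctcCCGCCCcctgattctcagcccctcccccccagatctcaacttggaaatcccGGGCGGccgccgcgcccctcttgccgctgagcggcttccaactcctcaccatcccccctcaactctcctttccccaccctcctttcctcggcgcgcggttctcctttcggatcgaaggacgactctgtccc
The first window, 49 bases from the peak, had a GC content of 48% and 4 CpG dinucleotides and held none of the 8 motifs searched. The second, 1532 bases from the peak, had 65.7% and 21 and held 3 matches to GGGCGG, counting both strands.

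RefSeq windows of all the genes but Kdm6b and Chd2, 10 windows of 8 genes, were compared with the peaks, and none overlapped a peak of any list. Of these 8 genes only Aebp2 and Arid1b had a peak assigned. Over all 32851 windows 0.871% overlapped a control H3K27ac peak, and 0.00304% a control UTX peak. CpG content varied widely among the genes without a peak, from 1 CpG in the Ncoa6 window to 56 in the Kmt2c window. In the Kmt2c window GGGCGG was found 12 times, counting both strands. The windows of Ezh2 and Ep300 held 31 and 30 CpG dinucleotides, and that of Kmt2d 27. For Ncoa6 and Kmt2d, both on the - strand, the listed start sites lie inside the gene and not at its upper end. They are 155440783 with an upper end at 155473911 for Ncoa6, and 98871205 with 98874077 for Kmt2d. The other motifs searched were the AP-1 motif TGANTCA (in 7.81% of all windows), the CRE motif TGACGTCA (1.79%), the ETS motif CCGGAAG (8.86%), the TATA box, searched as TATAAA (13.6%), and the motif of GATA factors, searched as AGATAA (11.2%), all on both strands. The CRE and AP-1 motifs share part of their letters. Of these only a TATA box was found, in the Ncoa6 window.

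Arid1b encodes a DNA-binding subunit of the BAF (SWI/SNF) remodelling complexes. The gene lies on chromosome 17 from 4994297 to 5347656 and is 353 kb long, next to a stretch of 1298035 bases that holds no other protein-coding gene and ends at Nox3, an NADPH oxidase gene. Its 2 control H3K27ac peaks both lay in that stretch. The peak of 226 bp (4946738 to 4946963) was 47333 bases from the gene, inside the lncRNA gene Gm41517. The peak of 453 bp (4626182 to 4626634) was 367662 bases from the gene, inside the lncRNA gene Gm34259, and 320103 bases separated the 2 peaks.

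At the distant position a peak was called in all 4 lists. The control UTX peak spanned 720 bp (4626017 to 4626736) and was the widest of its 547. The Utx-deleted UTX peak spanned 660 bp (4626047 to 4626706), rank 9 of 213, and the Utx-deleted H3K27ac peak 299 bp (4626289 to 4626587), rank 23 of 48. The 453 bp of the control H3K27ac peak ranked 297 of 2140. The 4 intervals are nested: the Utx-deleted H3K27ac peak lies within the control H3K27ac peak, which lies within the Utx-deleted UTX peak, which lies within the control UTX peak.

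The 2 UTX peaks had the same middle, and each edge differed by 30 bp, so that the Utx-deleted peak covered 91.7% of the control peak. The middle of the control H3K27ac peak lay 31.5 bp from it and that of the Utx-deleted H3K27ac peak 61.5 bp. The Utx-deleted H3K27ac peak covered 66% of the control H3K27ac peak, from 107 bp inside its lower edge to 47 bp inside its upper edge. Widths come from the authors' caller on merged libraries and have no error, so a narrower peak cannot be read as a smaller amount of mark or protein. What the UTX antibody bound at this position after Utx deletion was not tested. Both UTX peaks are calls with that antibody, and the Utx-deleted one cannot be read as UTX binding. Whether the control UTX peak, which has the same middle, reflects UTX was not tested either.

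**Figure D4:**
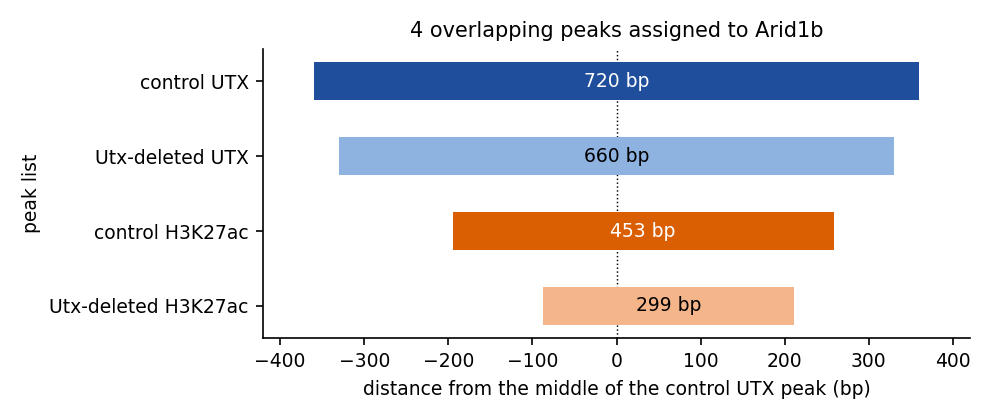
The 4 overlapping peaks assigned to Arid1b, each bar spanning a peak of the named list by distance in bp from the middle of the control UTX peak. The UTX peaks (720 and 660 bp) share their middle and enclose the H3K27ac peaks (453 and 299 bp), whose middles lie 31.5 and 61.5 bp to the right.

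Across the series this position was alone in having a peak in all 4 lists: 1 of 2140 control H3K27ac and 1 of 547 control UTX peaks overlapped a peak of each other list. It supplied the single overlap of the H3K27ac lists, 0.0467% of the control peaks and 2.08% of the Utx-deleted peaks. It was also 1 of 71 control UTX peaks that overlapped a Utx-deleted UTX peak, which is 13% of the control and 33.3% of the Utx-deleted list. It was also 1 of 4 control UTX peaks on a control H3K27ac peak and 1 of 2 on a Utx-deleted H3K27ac peak. Overlap of the 2 antibodies' peaks was common after Utx deletion: 35 of 48 Utx-deleted H3K27ac peaks (72.9%) overlapped a Utx-deleted UTX peak, and 16% of the Utx-deleted UTX peaks overlapped a Utx-deleted H3K27ac peak.

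The link of this position to Arid1b rests on distance alone. It lay 368 kb from Arid1b and 930 kb from Nox3. Of the control UTX peaks 5.48% lay at least as far from their gene, and of the control H3K27ac peaks 0.655%. A control UTX peak on the far side of Arid1b (5580144 to 5580352), assigned to Zdhhc14, was closer to Arid1b, at 232487 bases, and yet was not counted for it. Within 100 kb of Arid1b only the 226 bp control H3K27ac peak remained. The position overlapped Gm34259 13638 bases from the start site listed for that lncRNA. Overlap with an annotated noncoding gene was seen for 7 of the 15 control H3K27ac peaks of the 10 genes and for 14.7% of the whole list.

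The remaining 5 genes without a peak were Kmt2c, Kmt2d, Ncoa6, Ezh2 and Ep300. Within 100 kb of them lay 4 peaks, all assigned to other genes. Kmt2d, on chromosome 15 from 98831669 to 98874077, had a control H3K27ac peak of 303 bp 44373 bases away, assigned to Lmbr1l. Ncoa6, a coactivator gene on chromosome 2 from 155390656 to 155473911, had control H3K27ac peaks 19660 and 95293 bases away, assigned to Trp53inp2 and Pigu. Both genes have close neighbours, with Trp53inp2 808 bases from Ncoa6 and Prkag1 160 bases from Kmt2d.

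The nearest call to Ezh2 was of the other genotype. Ezh2 lies on chromosome 6 from 47530274 to 47595270, and a Utx-deleted H3K27ac peak of 616 bp (47685913 to 47686528) lay 90642 bases from it, assigned to Gm40363. Another Utx-deleted H3K27ac peak (47772719 to 47772963) and a control H3K27ac peak (47788281 to 47788641) lay farther on, both assigned to Pdia4, which encodes a protein disulfide isomerase. These did not overlap each other. The control peak was 193010 bases from Ezh2.

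Kmt2c on chromosome 5 and Ep300 on chromosome 15 had no peak of any list within 100 kb. The share of all genes with none within that distance is not given here. The nearest control H3K27ac peak was 430146 bases from Kmt2c, at Rheb, and 119052 bases from Ep300, at Rbx1. The nearest control UTX peaks were 4842129 and 2609123 bases away. Chromosome 15 had 0 Utx-deleted H3K27ac peaks and 1 Utx-deleted UTX peak.

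By the set of lists in which a gene had a peak, Arid1b had no match among the 21887 genes. Chd2, Kdm6b and Aebp2 were 3 of 1290 genes with peaks in the control H3K27ac list only. The 6 genes without a peak fell among 20017 protein-coding genes with none. Pdia4, named above, was the only gene with peaks in the 2 H3K27ac lists and in neither UTX list. Its control H3K27ac peak lay 7499 bases outside the gene and its Utx-deleted H3K27ac peak 23177.

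Chromatin regulators outside the 10 genes were counted on 10 lists of complexes, which together held 150 further genes. Of these, 16 had a control H3K27ac peak (10.7%, against 6.13% of all genes) and 2 a control UTX peak (1.33%, against 2.44%). A Utx-deleted UTX peak was assigned to 1 (0.667%, against 0.516%) and a Utx-deleted H3K27ac peak to 0 (against 0.128%). Within the COMPASS-like complexes and their core, 1 of 10 genes had a control H3K27ac peak, Rbbp5, whose peak of 199 bp lay 41 bases outside it. In the other H3K4 methyltransferase complexes it was Hcfc1, an adaptor gene, with a peak of 421 bp inside it. Polycomb repressive complex 2 had 2 of 12, Aebp2 and Phf19, and Polycomb repressive complex 1 had 0 of 19.

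Histone demethylases had 4 of 25 genes with a control H3K27ac peak. Besides Kdm6b these were Jmjd1c with 2 peaks, and Kdm5c and Kdm2a with 1 each. Acetyltransferases had 3 of 13, the coactivator gene Ncoa2 with 2 peaks and Kat8 and Kat5 with 1 each. In the BAF complexes 5 of 27 had one, with 3 peaks at Bcl7c and 1 each at Bcl7a, Smarce1 and Brd7 besides Arid1b. Among CHD and other remodellers 3 of 17 had one, with 3 peaks at Chd9 and 2 at Chd7 beside the 7 of Chd2. Deacetylases and corepressors had 1 of 19, Hdac5, and acetyl-lysine readers 0 of 11. The share over all genes was 6.13%. Kdm6b, Arid1b and Chd2, which are included in these counts, were chosen with results of the lists known.

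UTX peaks were fewer in these lists. Ncoa1, a nuclear receptor coactivator gene, had 3 control UTX peaks, the widest of 600 bp, and 1 Utx-deleted UTX peak of 346 bp. Rcor1, a corepressor gene, had a control UTX peak of 199 bp lying 23955 bases outside it. Neither had an H3K27ac peak. No gene of the COMPASS-like, Polycomb or demethylase lists had a UTX peak in either genotype, beside shares of 2.44% and 0.516% over all genes.

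**Figure D5:**
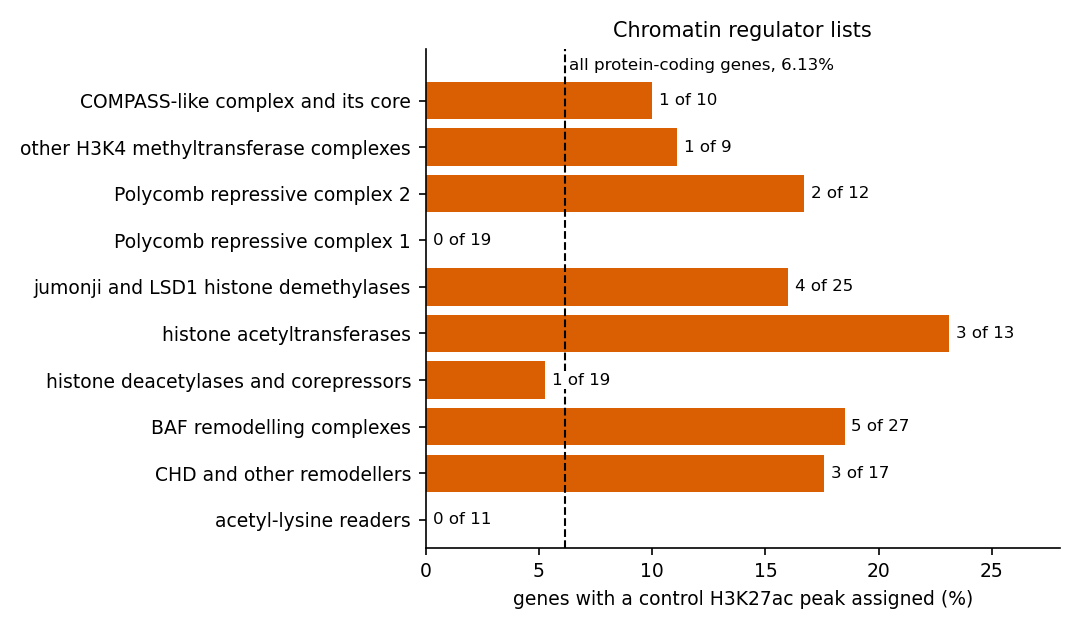
Percentage of the genes of each of 10 chromatin regulator lists with a control H3K27ac peak assigned, with the number of genes beside each bar. The dashed line is the share of all protein-coding genes, 6.13%. Shares run from 0 of 19 and 0 of 11 to 3 of 13, and the lists include members of the 10 genes.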

How the data were processed

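The authors deposited 4 peak lists in BED format. Per the file headers they are narrow peaks that MACS2 called after the samples of a group had been merged. Per the submitters' processing notes, FastQC, Bowtie2, bedtools and deepTools were used too, without a version given. Each line holds a chromosome, start and end, without height, fold or q, and 6 of 2948 peaks lay on unplaced sequence and were left out of gene assignment. The notes name GRCm38 and GRCm39. On GRCm38, 36.1% of control H3K27ac peaks were at most 1 kb from the border of a gene. After moving them by 10 kb up or down, 10.1% and 9.68% were, so GRCm38 was used, with 1-based positions. The other lists were not moved and were taken to be on the same build. Their unmoved shares were 14.6% for Utx-deleted H3K27ac, 3.11% for control UTX and 8.65% for Utx-deleted UTX.

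The members, gene lists and rules were chosen with earlier results of these data known. Genes came from RefSeq (GRCm38.p6), whose gene table gives no strand; start sites and strands came from RefSeq promoter windows. A peak that overlapped several genes counted for each. Overlap meant 1 bp. Named genes are the 10 members, their neighbours, and up to 4 genes of each list by number of peaks. The markers Dsp, Gata3, Pecam1, Vwf and Tyrp1 and the genes to which peaks near the members were assigned were named after their values were seen. The assignment recovered all peaks planted at known places. Peaks planted outside a gene were kept only where that gene was the single nearest. Recovery therefore checks the code and not whether the rule links peaks to the right genes. No test was made, since merged lists have no replicates. Groups were taken from the sample labels. Input libraries were not analysed here. Python 3.11.15, numpy 2.4.6 and pandas 2.3.3 were used.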

Additional observations from a re-analysis of the deposited data

How the results depend on the processing

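Of 68 alternative values over 14 results, 43 stayed within 1.5 times the reported count and 25 moved further. Assignment by the peak's midpoint or by the nearest gene end, and merging peaks within 1 kb, moved none beyond that size. Kept to peaks inside the gene, the control H3K27ac peaks of the 10 genes went from 15 to 7, and within 10 kb or with the wider peaks only to 8, since such settings drop peaks by construction. Inside the gene, within 10 kb or within 100 kb, the peaks and the genes with a peak went from 1 to 0 in the Utx-deleted H3K27ac, control UTX and Utx-deleted UTX lists, because the position assigned to Arid1b lies 368 kb from it. Further pathway genes with a control H3K27ac peak numbered 8 with wider peaks only, and those with a control UTX peak 1 with wider peaks only and 1 within 10 kb. With 3 kb in place of 1 kb, 4 of the 15 peaks rather than 2 were near a gene border. With 50% reciprocal overlap 4 of the 6 pairs of lists still shared the Arid1b position. A stricter q and the omission of a library could not be tried on lists without either. No paired analysis was possible because the replicates were pooled before peak calling.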
